A study of Arabidopsis thaliana with 6 samples.

Results

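The ATG8 genes and ATG3 of Arabidopsis thaliana were followed in suspension-cultured cells that received isoxaben, a herbicide that blocks cellulose synthesis, and in control cultures. The members are the probe sets that the platform's probe-to-gene table assigns to exactly 1 gene and names ATG3, ATG8B, ATG8C, ATG8D, ATG8E, ATG8F, ATG8G or ATG8H. These are 8 probe sets, 1 for each gene, of 13513 with exactly 1 gene and 22810 in the whole table. The family has 2 further genes on the array, ATG8A and ATG8I, which that table carries under the older names APG8A and APG8H. They were recognised through their loci, AT4G21980 and AT3G15580, in a RefSeq gene table and are given beside the members. The older name APG8H therefore belongs to ATG8I and not to ATG8H (locus AT3G06420).

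Autophagy carries cytoplasm, organelles and protein aggregates to the vacuole inside a double-membrane vesicle, the autophagosome. ATG8 is a small ubiquitin-like protein that is attached to a lipid of the growing vesicle membrane, where it helps the membrane expand and holds cargo receptors. The protease ATG4 first trims the end of ATG8, ATG7 activates it, and ATG3 is the conjugating enzyme that passes it to the lipid with the help of the ATG12-ATG5 conjugate. Plants have a family of ATG8 genes where yeast has a single one. The plant family is divided into a larger branch with ATG8A to ATG8G and a smaller one with ATG8H and ATG8I, whose proteins need no trimming by ATG4. In plants the process recycles nutrients under starvation and in senescence and removes damaged parts under stress, and several ATG8 genes are known to be induced by starvation.

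The series, which concerns how the wall's pectic matrix is put together, measured RNA of whole cultures on Affymetrix ATH1 arrays. There were 3 isoxaben arrays, with 0.1 mM isoxaben in the treatment label, and 3 control arrays with no treatment label. All cultures grew in Murashige and Skoog medium with sucrose, the auxin naphthalene acetic acid and the cytokinin kinetin. The labels name no ecotype, line or length of treatment, and do not say whether each replicate was its own culture. The p-values set the difference between the groups against the scatter among these samples. That scatter may be technical, in which case the p-values do not extend to new cultures.

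Values are linear signal intensities that the authors had scaled to a common trimmed mean, so a change is relative to the other transcripts of an array. The array medians were 31.6 to 42. With 3 arrays a group, precision is limited by their number. The titles split the arrays into a first set with replicate 1 of each group and a second set with replicates 2 and 3 of each. Both arrays of the first set call for care. The source name of isoxaben replicate 1 carries the code DCB, although its title and treatment label name isoxaben. Control replicate 1 has 7023 outlier cells in its label, against 160 to 613 on the other arrays. Of 19 marker genes of differentiated or dividing cells, 3 had a probe set of 1 gene. FAMA of guard cells and EXPA7 of root hairs lay below the filter on dim probe sets, a mean log2 value that corresponds to a signal of 22.1. RCA, the Rubisco activase of photosynthetic cells, had signals of 178.1, 136.9 and 102.6 in isoxaben cultures, against 97.4, 57.6 and 60.9 in control cultures. It rose by 0.82 ± 0.21 (SE) on the log2(signal + 16) scale (limma, Benjamini-Hochberg adjusted p = 0.00802), and its part in the results below was not tested.

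Setting isoxaben against control cultures asks which transcripts differ in cultures that received this blocker of cellulose synthesis. Most of the ATG8 transcripts, and that of ATG3, were less abundant with isoxaben. Of the 8 members, all 8 passed the filter on dim probe sets, 7 were lower, none was higher and ATG8G was not called (limma, Benjamini-Hochberg adjusted p under 0.05). Over all 13648 probe sets tested, 27.2% were called lower and 29.4% higher, 56.6% in all. The median log2 change of the 8 members was -0.70, against 0.00824 over all tested probe sets. Because the members were chosen with earlier results of these data known, this contrast describes them and is no test. A fall of at least 2-fold was found for 3 members, ATG8H, ATG8F and ATG8C, and for 9.92% of all tested probe sets. Every isoxaben array lay below every control array for 7 members, all but ATG3, and for 30.4% of all tested probe sets. With ATG8A and ATG8I the counts were 9 lower and 1 not called of 10, with 4 lower by at least 2-fold. Since each array measured a whole culture, fewer cells of a kind and less RNA per cell cannot be told apart.

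**Figure D1:**
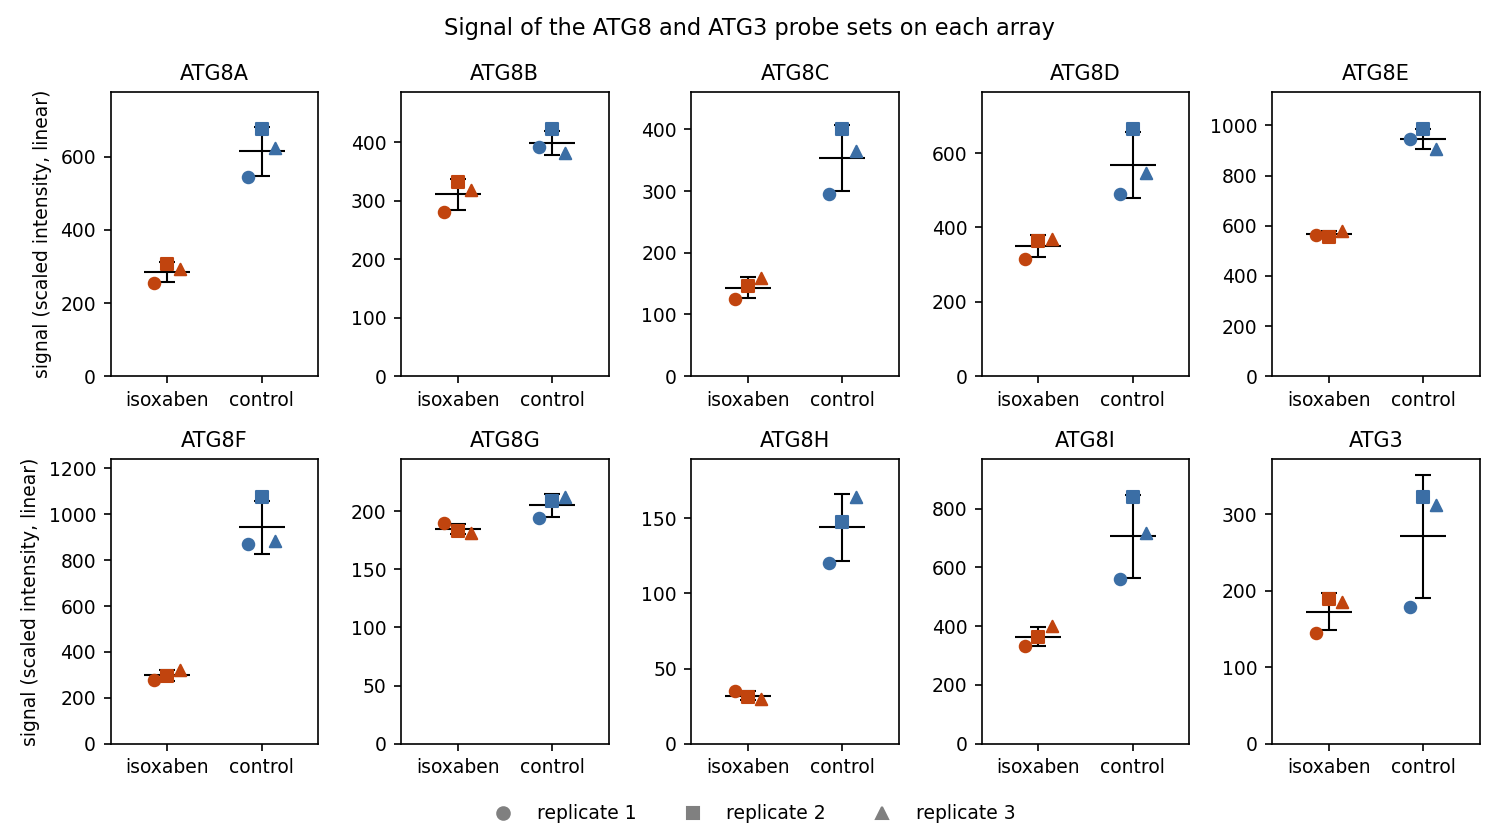
Signal of each ATG8 and ATG3 probe set (linear scaled intensity, axis from 0) on the 3 isoxaben arrays, left, and the 3 control arrays, right; marker shapes give the replicate, and the line and bar give the mean and SD. The groups are apart for all 9 ATG8 genes, narrowly for ATG8G, and overlap for ATG3, where control replicate 1 (178.7) lies below 2 isoxaben arrays.

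ATG8H, of the branch that needs no trimming, changed most on the log2 scale. Its signal was 35.2, 30.9 and 29.7 in isoxaben cultures, against 120.2, 147.7 and 164.4 in control cultures. Every isoxaben array lay far below every control array, and the isoxaben signals were not far above the filter signal of 22.1. The mean of 31.9 ± 2.89 (SD, n = 3) with isoxaben was 22.2% of the 144 ± 22.3 (SD, n = 3) in control. The log2 change of (signal + 16) was -1.73 ± 0.14 (SE; limma, adjusted p = 4.29e-06). Because the isoxaben signals are low, this size depends on the pseudocount: it was -2.13 with a pseudocount of 1 and -1.11 with 64, both called lower.

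ATG8I, the other gene of that branch, fell less. Its signal was 331.0, 364.0 and 398.7 in isoxaben cultures, against 559.9, 840.8 and 716.8 in control cultures. The groups did not overlap, and the control arrays were spread more widely (SD 141) than the isoxaben arrays (SD 33.9). The log2 change was -0.91 ± 0.15 (SE; limma, adjusted p = 0.000524). The 95% intervals of the changes were -2.04 to -1.42 for ATG8H and -1.24 to -0.58 for ATG8I, so those of the pair do not overlap, while the difference itself was not tested. Its size depends on the pseudocount, because the isoxaben signals of ATG8H are low. The changes of ATG8H and ATG8I were -2.13 and -0.94 with a pseudocount of 1, and -1.11 and -0.83 with 64.

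Among the genes of the larger branch, ATG8F had the deepest fall. Its signal was 276.3, 295.1 and 321.3 in isoxaben cultures, against 871.9, 1077.4 and 882.4 in control cultures. The lowest control signal was far above the highest isoxaben signal, and the isoxaben mean of 298 ± 22.6 (SD, n = 3) was 31.5% of the control mean of 944 ± 116 (SD, n = 3). The log2 change was -1.61 ± 0.12 (SE; limma, adjusted p = 2.35e-06). ATG8F stayed called lower when any single array was left out, with log2 changes of -1.66 to -1.51.

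ATG8C and ATG8A followed. The signal of ATG8C was 124.9, 145.9 and 158.9 in isoxaben cultures, against 295.6, 400.4 and 364.1 in control cultures. That of ATG8A was 253.6, 307.9 and 293.2 in isoxaben cultures, against 543.7, 675.5 and 624.5 in control cultures. In both genes the lowest control array was well above the highest isoxaben array, and replicate 1 was the lowest array within each group. The log2 change was -1.21 ± 0.14 (SE; limma, adjusted p = 4.87e-05) for ATG8C and -1.07 ± 0.12 (SE; limma, adjusted p = 4.23e-05) for ATG8A, which left 40.5% and 46.4% of the control mean signal.

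ATG8E and ATG8D fell by less than 2-fold. ATG8E was the steadiest within groups, with signals of 561.7, 555.2 and 578.4 in isoxaben cultures, against 947.3, 985.5 and 905.5 in control cultures. Its log2 change was -0.73 ± 0.09 (SE; limma, adjusted p = 8.24e-05), with 59.7% of the control mean. ATG8D had signals of 316.4, 362.6 and 369.7 in isoxaben cultures, against 490.4, 664.7 and 547.8 in control cultures. The groups of both genes did not overlap. The log2 change of ATG8D was -0.67 ± 0.13 (SE; limma, adjusted p = 0.00153), with 61.6% of the control mean.

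ATG8B and ATG8G changed least. ATG8B had signals of 280.7, 332.7 and 318.7 in isoxaben cultures, against 391.7, 422.4 and 381.9 in control cultures. The groups did not overlap, and the log2 change was -0.35 ± 0.11 (SE; limma, adjusted p = 0.0191). Leaving out isoxaben replicate 1 (-0.28, adjusted p = 0.0538) or control replicate 2 (-0.31, adjusted p = 0.076) ended this call by limma. It was also lost when arrays were centred on their medians (-0.39, limma adjusted p = 0.0513).

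ATG8G had signals of 189.6, 182.6 and 181.5 in isoxaben cultures, against 194.0, 209.0 and 212.5 in control cultures. The isoxaben arrays all lay below the control arrays, but the gap between replicate 1 of each group was small. The log2 change was -0.14 ± 0.10 (SE; limma, adjusted p = 0.268), with a 95% interval of -0.37 to 0.09. That interval leaves room for no change as well as for a fall like that of ATG8B, whose own interval was -0.59 to -0.11. With array weights ATG8G was called lower (-0.19, limma adjusted p = 0.025).

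ATG3, the enzyme that conjugates ATG8 to lipid, was the member with the widest spread. Its signal was 144.7, 188.6 and 184.9 in isoxaben cultures, against 178.7, 323.2 and 312.1 in control cultures. Control replicate 1 was lower than isoxaben replicates 2 and 3, so the groups overlap, while within each title set every isoxaben array was below every control array. The log2 change was -0.57 ± 0.21 (SE; limma, adjusted p = 0.0385). With the title set as a block the change was the same and the limma adjusted p was 0.000873. Without that block the call depended on which arrays were included. Leaving out isoxaben replicate 1 (-0.46, adjusted p = 0.135), 2 (-0.63, 0.0634) or 3 (-0.62, 0.0714), or control replicate 2 (-0.43, 0.128) or 3 (-0.45, 0.127), ended it, with limma adjusted p in each case. Without control replicate 1 the change was -0.83 (limma, adjusted p = 0.000205). It was -0.72 ± 0.08 (SE; limma, adjusted p = 2.18e-05) within the second title set and -0.28 within the first, which allows no test.

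**Figure D2:**
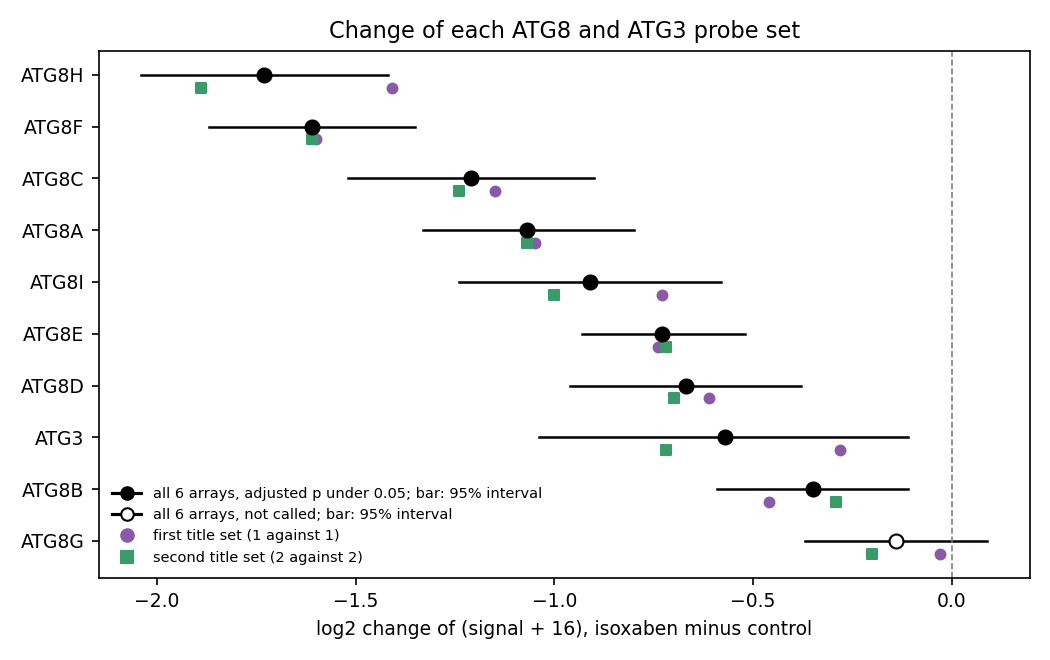
Log2 change of (signal + 16), isoxaben minus control, for each ATG8 and ATG3 probe set from the deepest fall at the top; black points and bars give the estimate and its 95% interval from all 6 arrays (open: not called), and the smaller points give the change within each title set. All points lie below 0, from -1.73 for ATG8H to -0.14 for ATG8G, and the interval of ATG8G alone reaches 0.

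Ordered by log2 change, the genes ran ATG8H, ATG8F, ATG8C, ATG8A, ATG8I, ATG8E, ATG8D, ATG3, ATG8B and ATG8G. The 95% intervals of every pair of neighbours in this order overlap, and those of ATG8H and ATG8G at the ends of the order are well apart. The differences between genes were not tested. ATG8H lay below all genes of the larger branch, whose changes ran from -1.61 to -0.14, and ATG8I within their range. The change in mean signal left between 22.2% and 90% of the control value among the members. The order was the same with a pseudocount of 1, while a pseudocount of 64 put ATG8F (-1.47) before ATG8H (-1.11). Signals of different probe sets were not set against each other, because probes differ in how brightly they bind their target.

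Every member was lower with isoxaben in both title sets, the smallest log2 change being -0.03 for ATG8G in the first. The median log2 change of the 8 members was -0.67 in the first set and -0.72 in the second, while the medians over all tested probe sets were -0.07 and 0.07. Within the second set, which leaves out both arrays that call for care, 7 of the 8 members were called lower, as in the full comparison, and ATG8G was -0.20 (limma, adjusted p = 0.0531). Over all tested probe sets that fit called 4212 lower and 4819 higher, more than the 3715 and 4011 of the full comparison. Those of the full comparison were 27.2% and 29.4% of the 13648 tested. Each fit on fewer arrays set its filter anew, so the probe sets tested are not exactly the same. Without isoxaben replicate 1 alone, 5 of 8 were called lower (median -0.66), and without control replicate 1 alone, 7 of 8 (median -0.80). Over all tested probe sets these fits called 3537 and 3868 lower, against 3715 in the full comparison. ATG8H changed by -1.41 in the first set and -1.89 in the second, and ATG8B by -0.46 and -0.29. Control replicate 1 was the lowest control array for 6 of the 8 members, as it was for 38.8% of all tested probe sets. Isoxaben replicate 1 was the lowest isoxaben array for 5 of the 8, as it was for 42.1% of all.

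**Figure D3:**
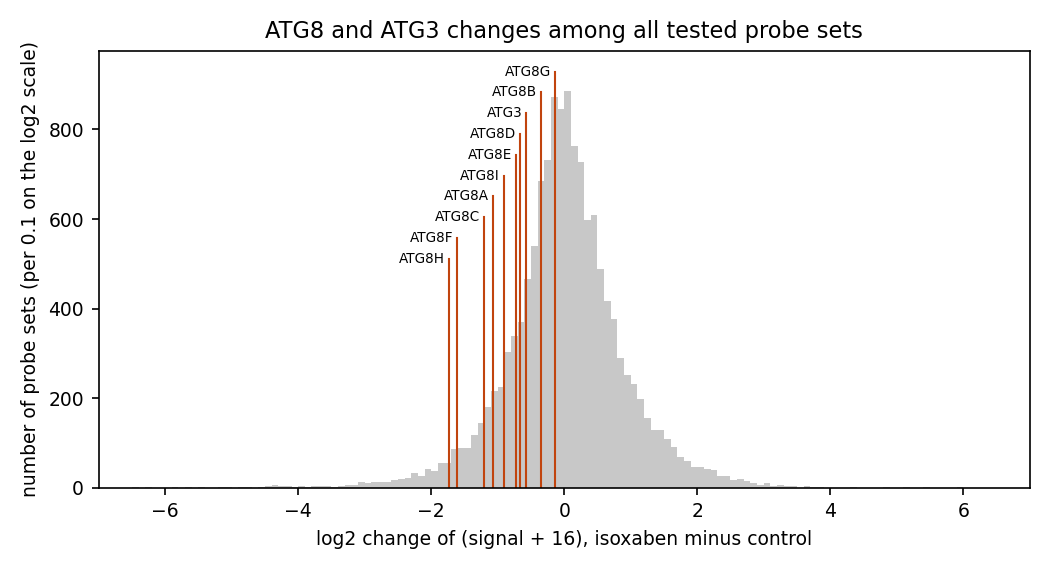
Histogram of the log2 change of (signal + 16), isoxaben minus control, over all 13648 tested probe sets (grey, number of probe sets per 0.1), with the ATG8 and ATG3 probe sets marked by red lines whose height has no meaning. The distribution is centred near 0 (median 0.00824), and all 10 marked probe sets lie on its lower side.

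All 10 probe sets have the plain _at ending, which Affymetrix gives to sets designed for a single transcript, as do 21685 of the sets in the table. ATG8 genes are nevertheless close paralogs, whose RNA may bind to one another's probes, and the probe sequences were not analysed here. The differing changes of the members are therefore changes of probe sets, not of fully separated transcripts.

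Of the other autophagy genes, few had a probe set of 1 gene. The 5 lists of the machinery (ATG8 conjugation and ATG4, the ATG1 kinase complex, ATG9 and ATG2-ATG18 membrane delivery, the phosphatidylinositol 3-kinase complex, and ATG8-binding cargo receptors and adaptors) hold 42 genes. A probe set was found for 11 and 9 passed the filter. Of these 9, 5 fell, 1 rose and 3 did not pass the test, beside 27.2% lower and 29.4% higher over all tested probe sets. The lists, like the members, were chosen with earlier results of these data known. By list, 1 of 2 conjugation genes, 2 of 4 genes of the ATG1 complex, 1 of 2 phosphatidylinositol 3-kinase genes and 1 of 1 of the receptors fell, and the rise was in the ATG1 complex. None of the 10 membrane delivery genes had such a probe set. Only 1 of the 9 carries its autophagy name in the reference table. The other 8 loci were listed from background knowledge and are not named. Leaving out single arrays gave 4 to 6 lower and 1 higher. The receptor call was lost without isoxaben replicate 2 or 3 or control replicate 2 or 3, while 7 were called lower with the title set as a block, among them 2 of 2 conjugation genes and 2 of 2 phosphatidylinositol 3-kinase genes, and 8 with array weights.

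The named gene was ATG101 (locus AT5G66930), a subunit of the ATG1 kinase complex, which starts autophagosome formation. Its signal was 65.6, 112.6 and 129.8 in isoxaben cultures, against 371.0, 496.0 and 475.4 in control cultures. All isoxaben arrays were far below all control arrays, and isoxaben replicate 1 was the lowest. The log2 change was -2.00 ± 0.21 (SE; limma, adjusted p = 2.55e-05), with a 95% interval of -2.46 to -1.53 that overlaps those of ATG8H and ATG8F. Without isoxaben replicate 1 it was -1.75, beside -1.78 for ATG8H.

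The kinase TOR restrains autophagy when nutrients are plentiful, and RAPTOR is the subunit that brings it its substrates. Of 9 listed regulators of the TOR and SnRK1 kinases, 2 were tested and 1 was lower. Over all tested probe sets 27.2% were lower and 29.4% higher. RAPTOR1B had signals of 83.9, 83.3 and 77.0 in isoxaben cultures, against 124.8, 111.2 and 126.4 in control cultures, with no overlap. It fell, with a log2 change of -0.49 ± 0.11 (SE; limma, adjusted p = 0.00398). RAPTOR1A had 66.2, 66.7 and 74.5 in isoxaben cultures, against 79.7, 52.0 and 63.2 in control cultures. Its groups overlap and its log2 change was 0.09 ± 0.15 (SE; limma, adjusted p = 0.649), a sign that turned without control replicate 2 (-0.03). Of 10 listed sugar-starvation markers, 1 locus was tested. It rose, as did 29.4% of all tested probe sets. This call was lost without isoxaben replicate 2 or 3, and its listed name is not paired with the locus in the reference table.

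The vacuole, where autophagosomes deliver their contents, holds the vacuolar processing enzymes, proteases that mature other vacuolar proteins. Of 7 listed vacuolar proteases these 3 were tested, and 2 fell and 1 rose. The calls of 2 of them, BETA-VPE and ALPHA-VPE, support nothing, for a reason given below. Over all tested probe sets 27.2% were lower and 29.4% higher. GAMMA-VPE, best known from vegetative tissue, had signals of 508.4, 549.3 and 559.0 in isoxaben cultures, against 803.8, 883.2 and 915.9 in control cultures. Its groups were apart, with a log2 change of -0.67 ± 0.10 (SE; limma, adjusted p = 0.000247).

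BETA-VPE, known for processing seed storage proteins, had 15.5, 14.6 and 11.4 in isoxaben cultures, against 106.9, 89.0 and 93.9 in control cultures. Its log2 change was -1.92 ± 0.14 (SE; limma, adjusted p = 2.15e-06). ALPHA-VPE had 62.7, 59.3 and 67.6 in isoxaben cultures, against 31.3, 18.3 and 18.6 in control cultures. Its log2 change was 1.05 ± 0.16 (SE; limma, adjusted p = 0.000361). The dim arrays of these last genes lay below the filter signal of 22.1, apart from control replicate 1 of ALPHA-VPE, so each passed the filter through its brighter group and had to differ, and the calls of these 2 support nothing. Under the 60th percentile filter neither was tested, which left 1 protease lower and 0 higher. Their sizes also depend on the pseudocount. With pseudocounts of 1 and 64 they were -2.72 and -1.04 for BETA-VPE and 1.48 and 0.56 for ALPHA-VPE.

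The genes whose pattern was most like that of the ATG8 members were sought among 1016 tested probe sets of 1 gene with a name other than the locus. Likeness was the root mean square distance over the 6 arrays between log2 values centred on each probe set and the mean of the centred profiles of the 7 ATG8 members. The nearest was VPS20.1, a subunit of the ESCRT-III complex that remodels endosomal membranes, at a distance of 0.033. Its signal was 93.3, 95.0 and 99.6 in isoxaben cultures, against 177.0, 225.5 and 195.2 in control cultures. AR781 (0.044), ATERDJ3B, a co-chaperone of the endoplasmic reticulum (0.049), ANK1 (0.051) and LUL2 (0.053) followed.

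The members themselves lay at distances of 0.118 for ATG8E to 0.424 for ATG8H from that mean and ATG3 at 0.277. The 5 genes were picked as the smallest distances among the 1016, so their being nearer than the members is no result. All 5 were lower with isoxaben, with log2 changes of -0.99 to -0.86, which the measure itself favours. By Pearson correlation over the same 6 arrays, only VPS20.1 (0.998) stayed among the first 5. The 6 arrays form 2 groups and share their scaling, so such a correlation is high for many genes: 267 of the 1016 reached at least the value of the lowest member, ATG3 (0.806).

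**Figure D4:**
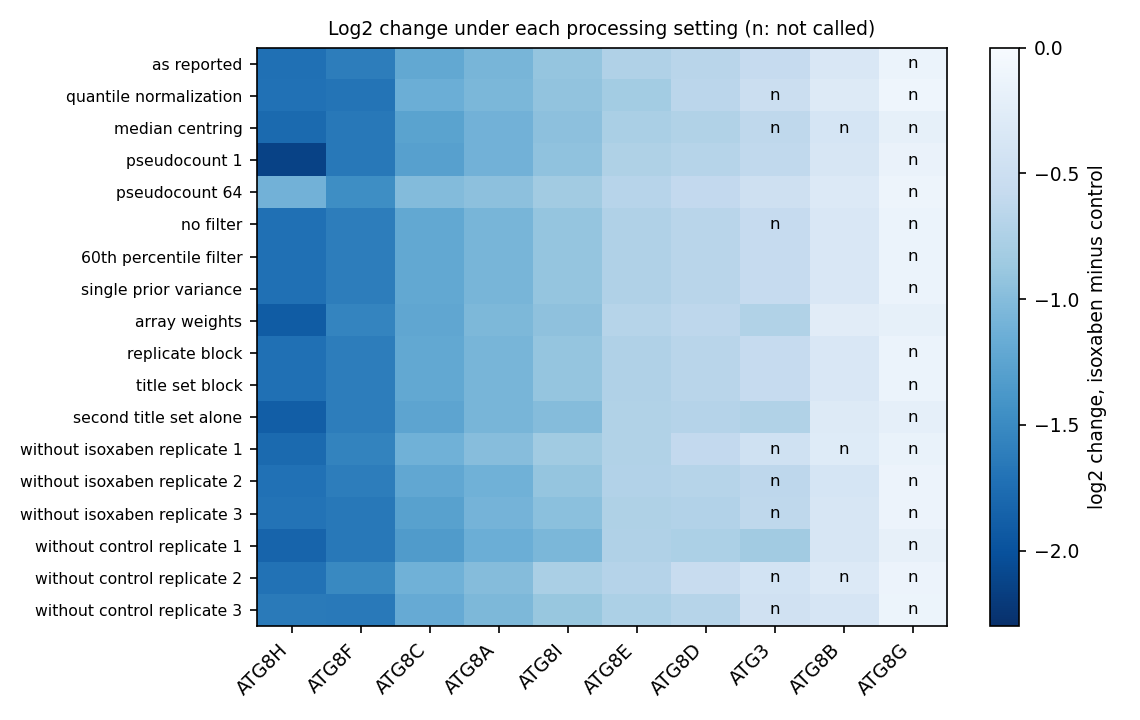
Log2 change of (signal + 16, or another pseudocount where named), isoxaben minus control, of each ATG8 and ATG3 probe set (columns) under each processing setting that allows a test (rows), with darker blue for a lower value and n where the gene was not called. Every cell is below 0. ATG8G was called with array weights only, ATG3 lost its call in 8 settings and ATG8B in 3, and the other genes were called in all.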

How the data were processed

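Transcripts of Arabidopsis suspension cultures were measured on 6 Affymetrix ATH1 arrays, per the labels. The deposited table holds 1 linear signal intensity for each probe set and array. The authors' values were already scaled, with a mean after trimming 2% at each end of 100.006 to 100.008. The algorithm behind them was not stated in the labels or the file.

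Groups and replicate numbers came from the titles, and the unnumbered first pair was called replicate 1. The 64 control probe sets were left out. The values log2(signal + 16) were tested with limma 3.58.1 in R 4.3.3 (lmFit, eBayes with an intensity trend, two-sided, no covariate). Probe sets with a mean below the 40th percentile were dropped, and p-values were adjusted by Benjamini-Hochberg over the 13648 left. Fold changes on this scale understate changes of dim genes. The fit was also run on simulated data with independent arrays and few changed probe sets. The real arrays differ in both respects, so that run checks the procedure and not these results. Intervals are 95% intervals of that fit.

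Probe sets were named through the platform's probe-to-gene table. The members and lists were chosen with earlier results of these data known. All probe sets of the members are named, with tested list genes whose name a RefSeq table of TAIR10.1 pairs with the locus, and the 5 genes nearest in pattern. A gene with several probe sets was represented by the brightest.

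As a check of pairing, deviations from the group means were correlated over the tested probe sets. Arrays of equal replicate number gave 0.207, 0.11 and 0.128. In the second title set, arrays with different numbers reached 0.101 and 0.118, so the numbers were not taken to pair the samples beyond their set. Arrays of different title sets gave -0.185 to -0.138. Alternatives were other normalizations, pseudocounts of 1 and 64, no filter and a 60th percentile filter, a single prior variance, array weights, a block for the replicate number or the title set, fits within a title set, and fits with 1 array left out.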

Additional observations from a re-analysis of the deposited data

How the results depend on the processing

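ATG8C, ATG8D, ATG8E, ATG8F and ATG8H were called lower under every alternative that allows a test, and no member changed sign under any alternative run. ATG3 lost its limma call with quantile normalization (-0.51, adjusted p = 0.0555), median centring (-0.62, 0.0573) and no filter (-0.57, 0.084). Leaving out single arrays gave ATG3 log2 changes of -0.83 to -0.43. ATG8B lost its call with median centring (-0.39) and ranged from -0.39 to -0.28 without single arrays. ATG8G was called with array weights (-0.19). In the first title set alone, which allows no test, ATG8B was -0.46, ATG8G -0.03 and ATG8H -1.41, each further from the reported value than 1 SD of the replicates. The cause of these differences was not tested. The number of members called lower ran from 5 to 8 and none was called higher. Over all tested probe sets the number called lower ran from 2974, under the 60th percentile filter, to 4613, with array weights. These are counts and not shares. The 60th percentile filter tests fewer probe sets, so its count does not mean a smaller share called lower. In the full comparison the share called lower was 27.2% of 13648. With the replicate number as a block (replicate block), 7 members stayed called lower, ATG3 had adjusted p = 0.00301, and 4250 probe sets were higher and 3913 lower, against 4011 and 3715 without it. With the title set as a block, 7 members were also called lower and ATG3 had a limma adjusted p of 0.000873. That fit called 4510 probe sets higher and 4144 lower among the same 13648 tested. Neither block changed a call of a member. Scaling moved the median change over all probe sets to -0.01 (quantile) and -0.04 (median centring). With 3 arrays a group and no detection calls, falls as small as that of ATG8G were not resolved, and the signals of ATG8H with isoxaben were near the filter.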
